A study of Mus musculus with 12 samples.

Results

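The genes described here are the receptors and surface enzymes by which microglia sense and break down extracellular purines. There were 9 of them, chosen by name from the 55487 genes of the count table: the P2Y receptors P2ry12, P2ry13 and P2ry6, the P2X receptors P2rx7 and P2rx4, the adenosine receptors Adora3 and Adora2a, and the ectonucleotidases Entpd1 and Nt5e. All 9 were found under their Ensembl identifiers and passed the filter on low counts, as did 15425 genes of the table.

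RNA-sequencing had been done on CD11b-positive microglia, which were isolated with magnetic beads from the cerebral cortex of male mice, 3 libraries in each of 4 groups and 1 mouse per library. AppNL-G-F mice carry Swedish, Iberian and Arctic mutations in their own App gene, with a humanized Aβ sequence, in all cells that express App. WT mice were of the C57BL/6J strain from which the AppNL-G-F line derives. The WT veh and AppNL-G-F veh groups received PBS, and the other two groups received 10 mg/kg of rh Bri2 BRICHOS R221E, a chaperone domain of the Bri2 protein with an exchanged amino acid, by vein. Mice of all 4 groups had 24 injections over 12 weeks from the age of 9 months and were sacrificed 4 weeks after the last injection. CD11b is also present on other myeloid cells, so the isolate is not of microglia alone.

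Cells release ATP and ADP when they are active or injured, and microglia meet these nucleotides through 2 kinds of receptor. P2Y receptors are coupled to G proteins, and P2X receptors are ion channels opened by ATP. P2ry12 responds to ADP and guides microglial processes towards damage, and it is widely used as a marker of resting microglia. On the cell surface, Entpd1 (CD39) cuts ATP and ADP to AMP, and Nt5e (CD73) cuts AMP to adenosine, which acts on adenosine receptors such as Adora3 and Adora2a.

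The libraries held 12433402 to 17889654 counts, and the detection floor of 3 counts corresponded to 0.169 to 0.227 normalized CPM, a limit that covers counting error only. Over 12 pairs of libraries of a group, the chi-square divided by its degrees of freedom was 5.39 to 31, above counting noise. The 8 microglial markers were present in all libraries, with summed levels of 22024 to 26570 normalized CPM. Markers of other cells were present too and did not stay level. The 7 astrocyte markers summed to 424 to 597 normalized CPM in veh-treated WT mice and 1396 to 4477 in veh-treated AppNL-G-F mice, and all 7 rose. The choroid plexus markers stood apart in replicate 3 of veh-treated WT mice, at 3856 normalized CPM against 844 to 884 in the other two. In bulk samples, fewer cells of a type and less RNA per cell cannot be told apart.

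P2ry12 (ENSMUSG00000036353) lies on chromosome 3 at chr3:59216272-59262871 of GRCm38, on the minus strand. P2ry13 (ENSMUSG00000036362) lies beside it on the same strand, at chr3:59207892-59210882, with 5389 bases between the annotated genes. Both are inside the span of Med12l, a gene of the opposite strand, which shares 9 exon bases with P2ry12 and none with P2ry13. P2rx7 (ENSMUSG00000029468) and P2rx4 (ENSMUSG00000029470) are neighbours as well, on the plus strand of chromosome 5 at chr5:122643911-122691432 and chr5:122707544-122729738, with 16111 bases between them. The strand setting of the counting was not given in the sources used here, so that reads of overlapping genes cannot be told apart. Med12l held 387 to 1045 counts per library, far fewer than P2ry12.

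The 3 genes with the largest differences between the veh-treated strains were P2ry12, P2ry13 and P2rx4, and the 250 bases before their RefSeq start sites are shown for that reason. They are at chr3:59262986-59263235, chr3:59210883-59211132 and chr5:122707294-122707543 of GRCm38.p6, and each is written 5′ to 3′ on the strand of its gene. Capitals mark AGGAAG, a sequence of the type bound by the ETS factor PU.1, the main transcription factor of myeloid cells.

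P2ry12: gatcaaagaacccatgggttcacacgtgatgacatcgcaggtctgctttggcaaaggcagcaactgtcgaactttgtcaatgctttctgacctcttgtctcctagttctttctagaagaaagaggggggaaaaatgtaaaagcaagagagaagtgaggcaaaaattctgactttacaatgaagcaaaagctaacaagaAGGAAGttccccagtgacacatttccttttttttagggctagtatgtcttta

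P2ry13: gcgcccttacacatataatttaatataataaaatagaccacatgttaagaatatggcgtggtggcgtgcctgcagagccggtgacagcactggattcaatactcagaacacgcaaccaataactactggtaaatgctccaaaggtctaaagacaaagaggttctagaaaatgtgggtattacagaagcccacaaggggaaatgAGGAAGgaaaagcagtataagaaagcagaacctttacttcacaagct

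P2rx4: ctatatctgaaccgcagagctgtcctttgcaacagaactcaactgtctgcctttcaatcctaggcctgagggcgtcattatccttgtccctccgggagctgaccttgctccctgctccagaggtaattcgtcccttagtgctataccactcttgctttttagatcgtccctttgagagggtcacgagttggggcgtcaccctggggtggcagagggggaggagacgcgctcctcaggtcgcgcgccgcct

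AGGAAG was searched on both strands and was present in 29.5% of 32851 windows of this length before RefSeq starts. It began 52 bases before the start of P2ry12 and 47 bases before that of P2ry13, and these letters were not in the window of P2rx4. The E-box CACGTG, present in 6.02% of all windows, occurred once before P2ry12. The RefSeq start of P2ry12 is 114 bases upstream of the 5′ end of the gene in the GENCODE M21 annotation, which was used here for symbols and positions. RefSeq windows were found for 7 of the 9 genes, with 9 windows in total, of which 5 held AGGAAG. The additional 3 windows with a match belonged to P2rx7, Adora3 and Entpd1. P2ry6 and Adora2a had no entry. A match of letters is a description and shows no binding.

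Levels of different genes are compared per kilobase of exon, as normalized RPKM. In veh-treated WT mice, P2ry12 had the highest level of the 9 genes, 1077 ± 46.2 normalized RPKM (SD, n = 3). P2ry13 followed at 416 ± 27.0 and Entpd1 at 114 ± 2.81. P2ry6 (56.8), P2rx7 (40.5), Adora3 (16.9) and P2rx4 (8.88) had intermediate mean levels in normalized RPKM. Adora2a and Nt5e had the lowest levels, at 0.408 ± 0.0934 and 0.182 ± 0.0744 normalized RPKM. No neighbours in this order overlapped in their ranges over the 3 libraries, in any of the 4 groups. The order was the same in WT mice given rh Bri2 BRICHOS R221E. In both groups of AppNL-G-F mice, P2rx4 was above Adora3, at 19.6 ± 2.30 against 11.1 ± 0.543 normalized RPKM in veh-treated mice. With the longest transcript in place of all exon bases as the length, P2rx4 (35.3 normalized RPKM) was level with P2rx7 (35.0) in veh-treated AppNL-G-F mice.

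**Figure D1:**
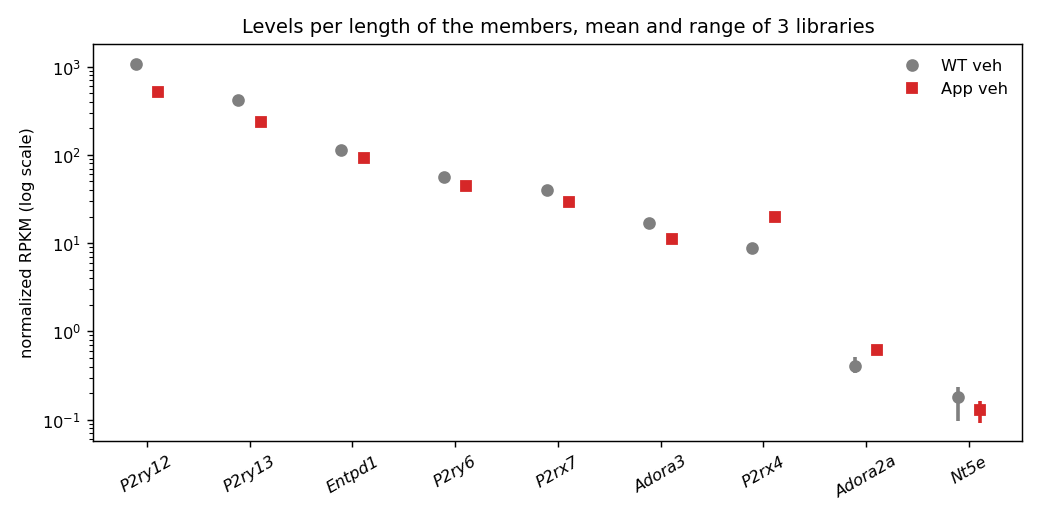
Mean level per length of each gene (normalized RPKM, log axis) in veh-treated WT mice (circles) and veh-treated AppNL-G-F mice (squares), with vertical lines for the range of the 3 libraries, hidden by the symbols where it is narrow. Levels run from 1077 for P2ry12 to 0.182 for Nt5e in WT mice, and P2rx4 is the gene that moves past its neighbour Adora3 in AppNL-G-F mice.

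The CD11b-positive isolates of veh-treated AppNL-G-F mice had less transcript of most purine receptors and of Entpd1 than those of veh-treated WT mice, and more of P2rx4. By edgeR's quasi-likelihood test with Benjamini-Hochberg adjustment, 6 of the 9 genes were lower (P2ry12, P2ry13, P2ry6, P2rx7, Adora3 and Entpd1), where 16.9% of all tested genes were lower. P2rx4 was the 1 gene that was higher, where 20.1% of all tested genes were higher. Adora2a and Nt5e did not pass the test. The median log2 fold change was -0.47 over the 9 genes and -0.02 over all tested genes. The groups did not overlap for 8 of the 9 genes, against 50.9% of all tested genes.

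The Gi-coupled ADP receptor P2ry12 fell the most. Its level was 2629, 2732 and 2864 normalized CPM in veh-treated WT mice and 1336, 1339 and 1279 in veh-treated AppNL-G-F mice. In rh Bri2 BRICHOS R221E-treated mice it was 2483, 2716 and 2526 normalized CPM in WT and 1347, 1335 and 1290 in AppNL-G-F. All 6 AppNL-G-F mice were below all 6 WT mice, and the libraries of a group lay close together. The log2 fold change between veh-treated AppNL-G-F and WT mice was -1.06 (SE 0.0593, 95% CI -1.19 to -0.93), with an adjusted p of 1.31e-07 from edgeR's quasi-likelihood test.

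P2ry13, a second Gi-coupled receptor for ADP, was 1024, 1001 and 1129 normalized CPM in veh-treated WT mice and 604, 593 and 604 in veh-treated AppNL-G-F mice. With rh Bri2 BRICHOS R221E it was 1024, 997 and 942 normalized CPM in WT mice and 626, 622 and 616 in AppNL-G-F mice. Again no AppNL-G-F mouse reached the level of a WT mouse. P2ry13 fell by 0.81 on the log2 scale between the veh-treated strains (SE 0.0561, adjusted p = 7.09e-07, edgeR). It changed less than its neighbour P2ry12, and P2ry12 per P2ry13, both per length, went from 2.52 to 2.71 in veh-treated WT mice to 2.10 to 2.24 in veh-treated AppNL-G-F mice. These ranges of the ratio do not overlap.

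P2ry6, the UDP receptor that triggers phagocytosis in microglia, changed less. Its level was 147 to 173 normalized CPM in veh-treated WT mice and 120 to 136 in veh-treated AppNL-G-F mice, ranges that do not overlap. P2ry6 fell by 0.36 on the log2 scale (SE 0.0776, adjusted p = 0.00358, edgeR).

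**Figure D2:**
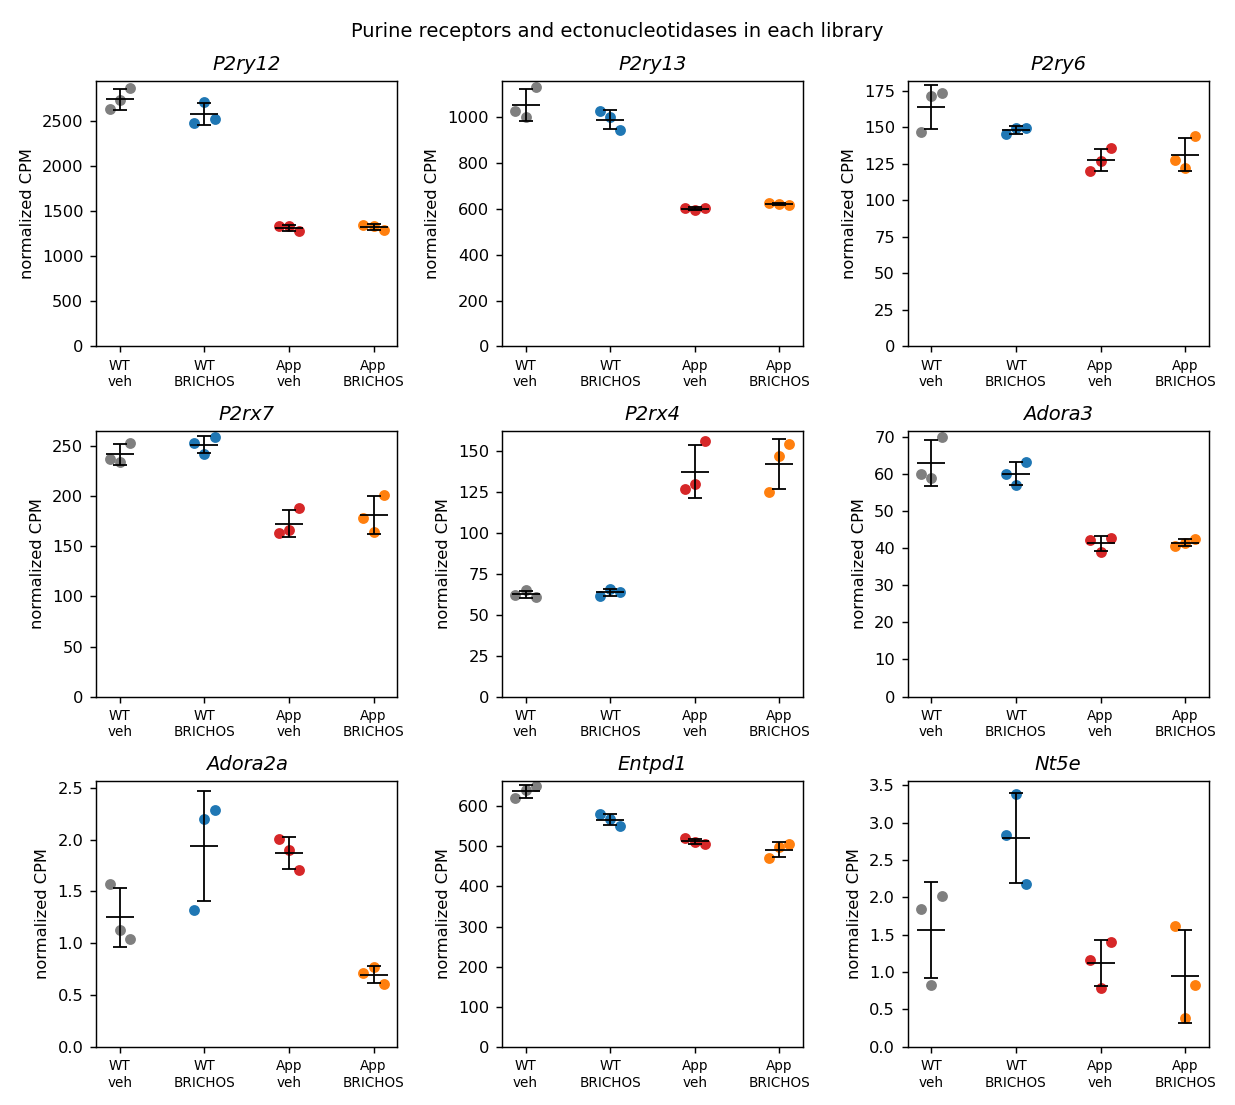
Normalized CPM of each of the 9 genes in all 12 libraries, with 1 point per mouse, horizontal lines for the mean and error bars for the SD of 3 mice. P2ry12, P2ry13, P2rx7, Adora3 and Entpd1 are lower and P2rx4 is higher in all 6 AppNL-G-F mice (App) than in all 6 WT mice. P2ry6 is lower too, by a narrow margin, at 144.2 or less against 145.13 or more. Adora2a and Nt5e stay under 3.5 normalized CPM.

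The P2X receptors moved in opposite directions. P2rx4, an ATP-gated channel found at the cell surface and in lysosomes and raised in reactive microglia after nerve injury, was 61.8, 64.8 and 60.5 normalized CPM in veh-treated WT mice and 127, 130 and 156 in veh-treated AppNL-G-F mice. With rh Bri2 BRICHOS R221E it was 61.5, 65.9 and 63.6 normalized CPM in WT mice and 125, 147 and 154 in AppNL-G-F mice. All 6 AppNL-G-F mice were above all 6 WT mice, with a wider spread in AppNL-G-F mice. P2rx4 rose 2.20-fold between the veh-treated strains (95% CI 1.92 to 2.53; log2 fold change 1.14, adjusted p = 2.27e-06, edgeR). P2rx7, the ATP-gated channel upstream of inflammasome activation, was 234 to 253 normalized CPM in veh-treated WT mice and 164 to 188 in veh-treated AppNL-G-F mice. P2rx7 fell by 0.48 on the log2 scale (SE 0.0771, adjusted p = 0.000486, edgeR). P2rx7 per P2rx4, both per length, was 4.25 to 4.93 in veh-treated WT mice and 1.42 to 1.52 in veh-treated AppNL-G-F mice. P2ry12 per P2rx4 was 116 to 131 and 22.6 to 29.1 in the same mice. Neither ratio overlapped between the strains, also after rh Bri2 BRICHOS R221E, with P2ry12 per P2rx4 at 110 to 114 in WT mice and 23.1 to 29.7 in AppNL-G-F mice.

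Of the adenosine receptors, Adora3, which is coupled to Gi, was 60.0, 58.9 and 70.0 normalized CPM in veh-treated WT mice and 42.2, 39.1 and 42.8 in veh-treated AppNL-G-F mice. The groups did not overlap, and Adora3 fell by 0.61 on the log2 scale (SE 0.0736, adjusted p = 6.45e-05, edgeR). Adora3 (ENSMUSG00000000562, chr3:105870858-105908926) shares 20.9% of its exon bases with Tmigd3 of the same strand, which held 0 to 8 counts per library. Adora2a (ENSMUSG00000020178, chr10:75316877-75334784), the Gs-coupled receptor that is abundant in striatal neurons, was a low gene in these libraries. It had 23, 19 and 14 counts in veh-treated WT mice and 31, 29 and 23 in veh-treated AppNL-G-F mice, or 1.57, 1.13 and 1.04 against 2.01, 1.90 and 1.70 normalized CPM. The groups did not overlap, but the log2 fold change of 0.58 (SE 0.272, 95% CI -0.01 to 1.18) had an adjusted p of 0.115 (edgeR).

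Of the surface enzymes, Entpd1 (ENSMUSG00000048120, chr19:40612366-40741602) was 621, 640 and 652 normalized CPM in veh-treated WT mice and 520, 511 and 506 in veh-treated AppNL-G-F mice. It fell by 0.31 on the log2 scale (SE 0.0463, adjusted p = 0.000276, edgeR), a small difference with a narrow spread. Nt5e (ENSMUSG00000032420, chr9:88327197-88372092), the enzyme of the next step, had 27, 14 and 27 counts in veh-treated WT mice and 18, 12 and 19 in veh-treated AppNL-G-F mice. These groups overlapped, and its log2 fold change of -0.47 (SE 0.471, 95% CI -1.50 to 0.56) did not pass the test (adjusted p = 0.46, edgeR). Per length, Entpd1 was 499 to 1189 times the level of Nt5e in veh-treated WT mice and 555 to 1001 times in veh-treated AppNL-G-F mice, ranges set mainly by the few counts of Nt5e.

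The markers of other cells moved between the same groups. All 7 astrocyte markers were higher in veh-treated AppNL-G-F mice, and all 5 neutrophil markers were lower, from 32.7 to 364 summed normalized CPM in veh-treated WT mice to 13.3 to 33.5. Of the 7 border macrophage markers, 6 were lower, from 406 to 477 summed normalized CPM to 176 to 243. The 5 oligodendrocyte markers summed to 9337 to 16473 normalized CPM in veh-treated WT mice and 2908 to 5289 in veh-treated AppNL-G-F mice, without overlap and with 2 called lower. Of 6 neuron markers 4 were lower, from 18.3 to 23.3 summed normalized CPM to 6.99 to 8.73, and of 5 endothelial markers 3 were lower. The microglial markers themselves were lower in 6 and higher in 1 of 8, with a median log2 fold change of -0.40, close to that of the purine genes. With the astrocyte marker level as a covariate, an alternative added after the data were seen, 4 of the 9 genes passed the test in place of 7. Calls over all tested genes fell from 5710 to 1802 with this covariate. The astrocyte level did not overlap between these strains (424 to 597 and 1396 to 4477 summed normalized CPM). The covariate is thus largely bound to strain, and kept or lost calls cannot tell them apart. P2ry12, P2ry13, Adora3 and P2rx4 kept their calls, and the adjusted p of P2ry6, P2rx7 and Entpd1 became 0.273, 0.125 and 0.0973 (edgeR). Their log2 fold changes with the covariate were -0.29, -0.39 and -0.27, in the same direction and somewhat smaller. The part of cell composition in these differences was not tested. Leaving out any 1 library left 7 of the 9 genes called.

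**Figure D3:**
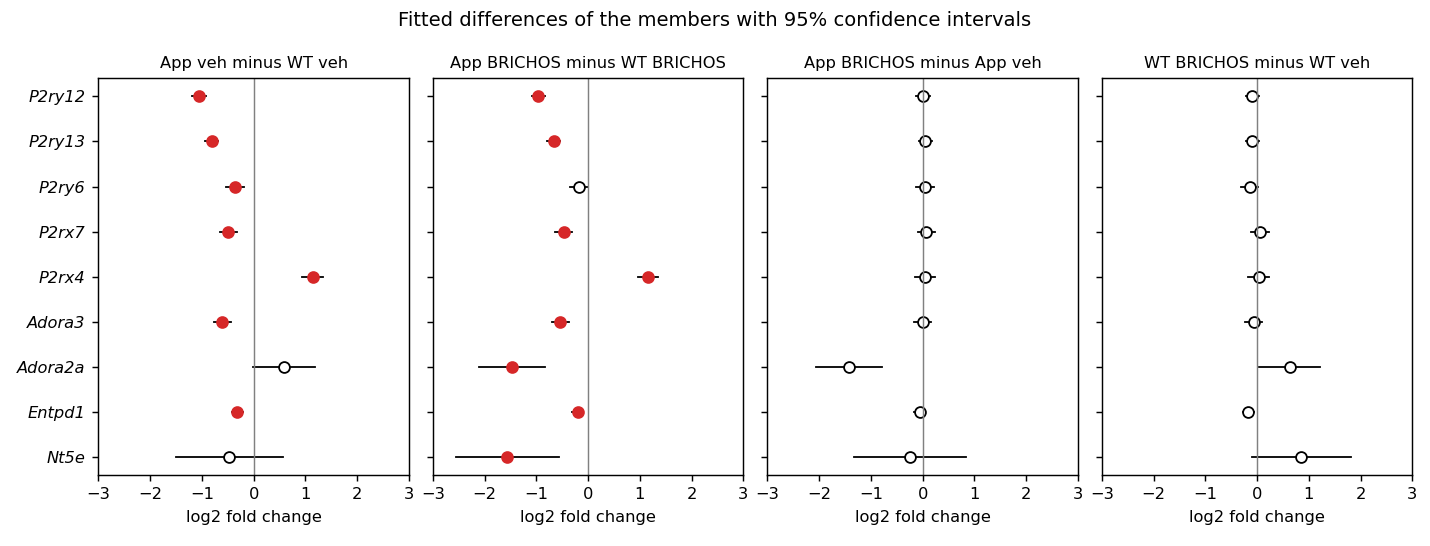
Fitted log2 fold change of each gene with its 95% confidence interval in the comparison of the strains after veh, of the strains after rh Bri2 BRICHOS R221E, and of rh Bri2 BRICHOS R221E with veh in each strain (App stands for AppNL-G-F). Filled points have an adjusted p under 0.05, which 7 and 8 of the 9 genes reach between the strains and 0 with the treatment.

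After rh Bri2 BRICHOS R221E, P2rx4 was again higher and P2ry12, P2ry13, P2rx7, Adora3 and Entpd1 lower in AppNL-G-F mice, while Adora2a, which had a log2 fold change of 0.58 after veh, was lower. In treated AppNL-G-F against treated WT mice, P2rx4 was higher and 7 genes were lower (all but P2ry6), where 20.8% of all tested genes were higher and 21.8% lower by edgeR's quasi-likelihood test. The groups did not overlap for any of the 9 genes, against 51.7% of all tested genes. The median log2 fold change was -0.54 over the 9 genes and -0.04 over all tested genes. P2ry12 fell by 0.96 on the log2 scale (adjusted p = 2.5e-07, edgeR), P2ry13 by 0.67, Adora3 by 0.54 and P2rx7 by 0.47, and P2rx4 rose by 1.16. Entpd1 fell by 0.20 (SE 0.0463, adjusted p = 0.00422, edgeR), a call that DESeq2's Wald test on these 6 libraries alone did not make (log2 fold change -0.17, adjusted p = 0.0826). P2ry6 did not pass the test, with a log2 fold change of -0.17 (95% CI -0.34 to -0.004) and an adjusted p of 0.0918 (edgeR). Without replicate 3 of treated AppNL-G-F mice it passed, with a log2 fold change of -0.24 and an adjusted p of 0.0331 (edgeR).

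Adora2a and Nt5e passed the test in this comparison, both on few counts. Adora2a had 21, 39 and 40 counts in treated WT mice and 11, 12 and 8 in treated AppNL-G-F mice, and fell by 1.47 on the log2 scale (SE 0.288, adjusted p = 0.00175, edgeR). Nt5e had 45, 60 and 38 counts in treated WT mice and 25, 6 and 11 in treated AppNL-G-F mice, and fell by 1.56 on the log2 scale (SE 0.458, adjusted p = 0.0172, edgeR). Nt5e lost its call in 3 of the 6 fits without 1 library (replicate 2 of treated WT mice, or replicate 2 or 3 of treated AppNL-G-F mice), where its adjusted p was 0.056 to 0.0585. The same mice differed in markers of several other cell types. Called lower were 6 of 7 border macrophage, 3 of 4 monocyte, 4 of 4 B cell and 3 of 5 neutrophil markers. Of 6 neuron markers 5 were lower, and of 5 endothelial markers 4. Of 8 microglial markers 5 were lower and 1 higher. Of 7 astrocyte markers 1 was higher and 0 lower, and of 5 oligodendrocyte markers 0 were called. The 4 choroid plexus markers summed to 3192 to 6670 normalized CPM in treated WT mice and 639 to 952 in treated AppNL-G-F mice, and all 4 were lower. The 5 fibroblast markers summed to 18.4 to 27.1 and 3.33 to 7.33 normalized CPM, with 4 lower, and the 5 mural markers to 165 to 223 and 54.6 to 88.3, with all 5 lower. With the choroid plexus marker level as a covariate, also added after the data were seen, 5 of the 9 genes passed the test in place of 8. Calls over all tested genes fell from 6560 to 2952 with it. The choroid plexus level did not overlap between the treated strains, so this covariate is largely bound to strain as well. Nt5e, P2rx7 and Entpd1 lost their calls, at an adjusted p of 0.426, 0.104 and 0.11 (edgeR). Their log2 fold changes were then -0.90, -0.28 and -0.20, so that the difference of Entpd1 was about as large as without the covariate. P2ry12, P2ry13, P2rx4, Adora3 and Adora2a kept their calls. The part of these cells in the levels of Nt5e and Adora2a was not tested.

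**Figure D4:**
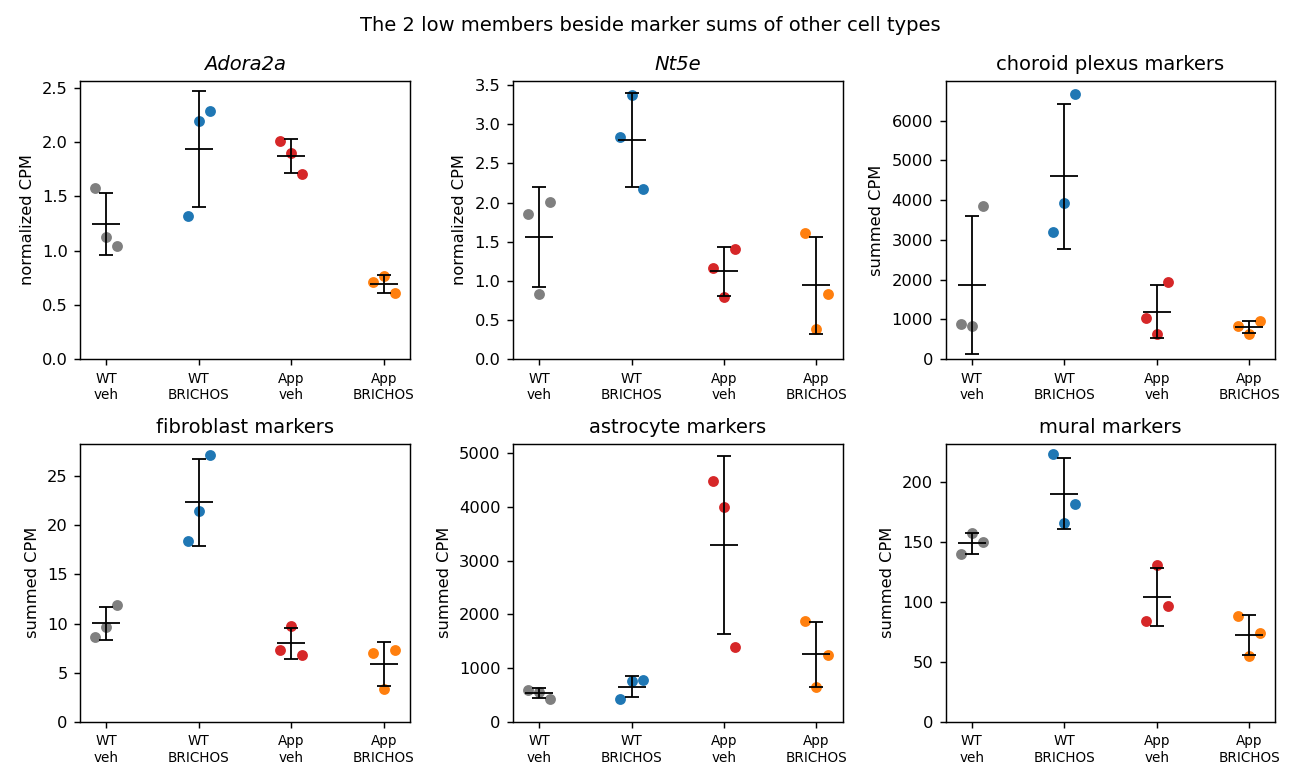
Normalized CPM of Adora2a and Nt5e beside the summed normalized CPM of choroid plexus, fibroblast, astrocyte and mural markers in all 12 libraries, with 1 point per mouse, horizontal lines for the mean and error bars for the SD of 3 mice. Nt5e is highest in WT mice given rh Bri2 BRICHOS R221E, at 2.17 to 3.38 normalized CPM, as are the fibroblast markers, at 18.4 to 27.1, and the mural markers, at 165 to 223. Not drawn are the border macrophage and monocyte markers, also highest in these mice, at 535 to 655 and 30.2 to 66.5.

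Treatment with rh Bri2 BRICHOS R221E was compared with veh in each strain, to see whether the receptors and enzymes that differ in AppNL-G-F mice moved with the treatment. None of the 9 genes passed edgeR's quasi-likelihood test in AppNL-G-F mice, where 0.00648% of all tested genes did, and none in WT mice, where 0% did. DESeq2's Wald test also called 0 of the 9 in either strain. At an unadjusted p under 0.05 there was 1 of the 9 genes in AppNL-G-F mice (Adora2a), against 10.8% of all tested genes, and there were 2 in WT mice (Adora2a and Entpd1), against 11.4%. The median log2 fold change over the 9 genes was 0.01 in AppNL-G-F mice and -0.07 in WT mice, and over all tested genes 0.01 and -0.004. Groups did not overlap for 3 of the 9 genes in AppNL-G-F mice (P2ry13 higher, Adora2a and Entpd1 lower), against 13.5% of all tested genes, and for 2 in WT mice (Nt5e higher, Entpd1 lower), against 17.5%.

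The intervals show how closely the treatment effect on bulk levels was estimated for well-expressed receptors. They do not bound the change per cell. In AppNL-G-F mice, the 95% confidence interval of the log2 fold change was -0.12 to 0.14 for P2ry12, -0.07 to 0.17 for P2ry13 and -0.15 to 0.24 for P2rx4. For P2ry12 this is a change to between 0.919 and 1.10 times the level after veh. In WT mice, the interval was -0.22 to 0.04 for P2ry12, -0.21 to 0.03 for P2ry13 and -0.17 to 0.23 for P2rx4. The strains differed by more than 0.8 on the log2 scale in each of these genes after veh. For P2ry6, P2rx7 and Adora3, the log2 fold changes with treatment were 0.04, 0.07 and 0.001 in AppNL-G-F mice and -0.15, 0.06 and -0.07 in WT mice.

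Entpd1 was 581, 568 and 551 normalized CPM in treated WT mice, below all 3 veh-treated WT mice. The log2 fold change was -0.17 (SE 0.0462), and its adjusted p was 0.243 (edgeR). In treated AppNL-G-F mice it was 472, 498 and 506 normalized CPM, a log2 fold change of -0.06 from veh with an adjusted p of 0.71 (edgeR).

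Adora2a was lower in treated than in veh-treated AppNL-G-F mice, at 0.710, 0.768 and 0.604 normalized CPM against 2.01, 1.90 and 1.70, without overlap. The log2 fold change was -1.42 (SE 0.292, 95% CI -2.06 to -0.78), with an adjusted p of 0.212 (edgeR). In WT mice it went the other way, from 1.57, 1.13 and 1.04 normalized CPM after veh to 1.32, 2.20 and 2.29 after treatment, with overlap and a log2 fold change of 0.63 (adjusted p = 0.407, edgeR). The treatment effect in AppNL-G-F mice minus that in WT mice was -2.05 on the log2 scale (SE 0.397). It did not pass edgeR's quasi-likelihood test (adjusted p = 0.151), and in DESeq2's Wald test it had an adjusted p of 0.0305. None of the 9 genes passed edgeR's test of this difference, where 0.00648% of all tested genes did, and 1 of the 9 (Adora2a) had an unadjusted p under 0.05, against 14.8%. The largest count of Adora2a in any library was 40, so that these values rest on few reads. The 5 striatal neuron markers summed to 41.3 to 63.0 normalized CPM in treated WT mice and 7.36 to 13.2 in treated AppNL-G-F mice, and to 14.6 to 44.6 and 14.7 to 23.7 in veh-treated WT and AppNL-G-F mice. Their part in the level of Adora2a was not tested.

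The other genes of purine signalling were followed in a list of 44 genes, of which 35 passed the filter on low counts. Between veh-treated AppNL-G-F and WT mice, 5 of the 35 were higher and 9 lower by edgeR's quasi-likelihood test, where 20.1% of all tested genes were higher and 16.9% lower, and the median log2 fold change was -0.12. The 9 lower genes were P2rx1, P2ry10, P2ry10b, Alpl, Ada, Pnp, Slc28a2, Slc29a3 and Pik3cg, and the 5 higher ones Adora1, Entpd2, Enpp1, Adk and Panx1.

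Of the receptors outside the 9 genes, the channel P2rx1 had the largest fall, from 9.11 to 12.2 normalized CPM in veh-treated WT mice to 2.22 to 3.17 in veh-treated AppNL-G-F mice (log2 fold change -1.96, SE 0.190, adjusted p = 1.07e-05, edgeR). P2ry10b went from 16.2 to 18.1 normalized CPM to 8.34 to 9.85 (log2 fold change -0.92, adjusted p = 9.84e-05, edgeR). Neither overlapped between the groups. P2rx1 and P2ry10 are also known from platelets, neutrophils or lymphocytes, and the neutrophil markers fell between the same mice, as given above. The part of these cells in the levels of P2rx1 and P2ry10 was not tested. The inhibitory adenosine receptor Adora1, which neurons and astrocytes use, rose from 11.8 to 25.0 normalized CPM to 30.5 to 40.5 (log2 fold change 1.06, adjusted p = 0.0255, edgeR). Adora1 was not called between the treated strains, at 10.4 to 27.9 normalized CPM in WT and 26.2 to 34.3 in AppNL-G-F mice, with overlap. It shares 20.1% of its exon bases with Mybph of the opposite strand.

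Among the surface enzymes, Enpp1, which splits ATP to AMP and pyrophosphate, rose from 17.6 to 19.2 normalized CPM in veh-treated WT mice to 37.1 to 43.4 in veh-treated AppNL-G-F mice. Its log2 fold change was 1.12 (SE 0.117, adjusted p = 1.93e-05, edgeR), and after rh Bri2 BRICHOS R221E it was 1.41 between the strains. Enpp1 therefore differed in the opposite direction to Entpd1, without overlap in either comparison. Alpl, tissue-nonspecific alkaline phosphatase, fell from 22.5 to 37.5 normalized CPM to 12.6 to 20.6 (adjusted p = 0.0203, edgeR). Entpd2 went from 10 to 33 counts to 24 to 95 counts with overlap (log2 fold change 1.80, adjusted p = 0.0468, edgeR), and 28.8% of its exon bases are shared with Npdc1 of the same strand.

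Of the enzymes that remove adenosine and inosine, Ada (adenosine deaminase) fell from 33 to 46 counts in veh-treated WT mice to 9 to 12 in veh-treated AppNL-G-F mice (log2 fold change -1.79, SE 0.267, adjusted p = 0.000306, edgeR). Pnp (purine nucleoside phosphorylase) fell from 68.6 to 77.7 normalized CPM to 36.2 to 41.0 (log2 fold change -0.90, adjusted p = 2.51e-05, edgeR). Pnp shares 718 exon bases with Gm49342 of the same strand. Adk (adenosine kinase), which is abundant in astrocytes, rose from 8.57 to 12.5 normalized CPM to 15.6 to 40.3 (log2 fold change 1.52, adjusted p = 0.00393, edgeR). Adk was not called between the treated strains. Slc29a3, the lysosomal nucleoside transporter, fell from 385 to 417 normalized CPM to 259 to 292 (log2 fold change -0.56, adjusted p = 1.88e-05, edgeR). The ATP release channel Panx1 rose from 5.96 to 8.12 normalized CPM to 10.2 to 13.3 (log2 fold change 0.67, adjusted p = 0.0176, edgeR). Of 5 genes acting with P2ry12 or downstream of it, Pik3cg, the Gβγ-dependent phosphoinositide kinase, fell by 0.29 on the log2 scale (adjusted p = 0.00406, edgeR), and the other 4 did not pass the test.

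**Figure D5:**
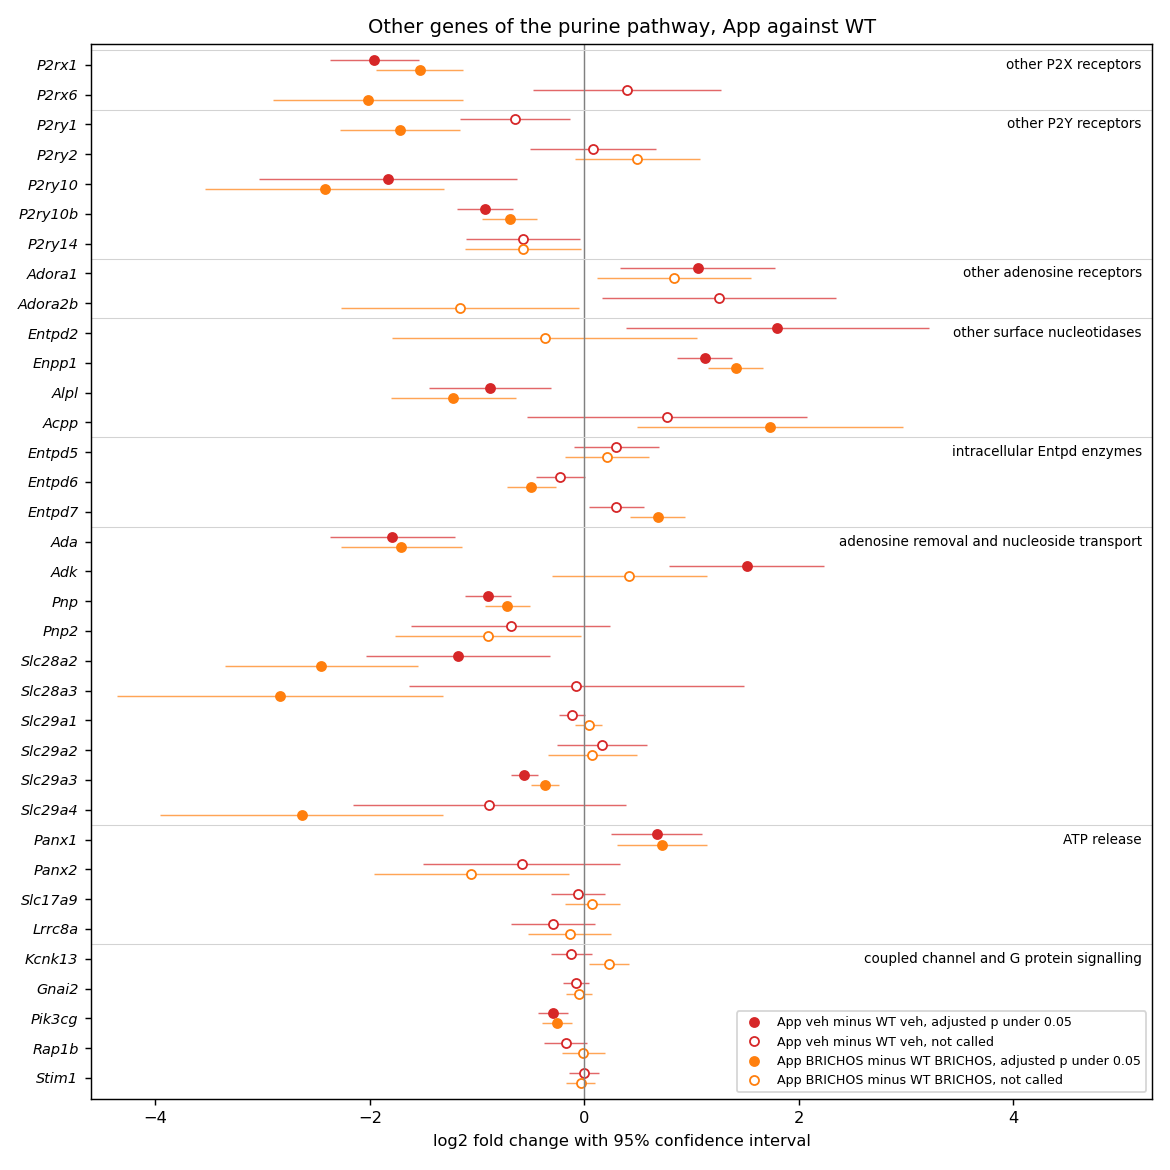
Fitted log2 fold change with 95% confidence interval of the 35 other purine pathway genes between AppNL-G-F (App) and WT mice after veh (red) and after rh Bri2 BRICHOS R221E (orange), grouped by role. Filled points have an adjusted p under 0.05, 14 after veh and 18 after rh Bri2 BRICHOS R221E, with Enpp1 and Panx1 to the right and P2rx1, P2ry10, Ada and Pnp to the left of 0 in both.

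Between the treated strains, 4 of the 35 genes were higher and 14 lower, with a median log2 fold change of -0.37, against 20.8% and 21.8% of all tested genes. Panx1, Enpp1, Acpp and Entpd7 were the higher ones. The 14 lower ones included P2rx1, Ada and Pnp as after veh, and Slc29a4, which fell from 18.5 to 31.3 normalized CPM to 2.82 to 4.91 (log2 fold change -2.63, adjusted p = 0.00447, edgeR). Slc29a4 is a transporter known from the choroid plexus, whose 4 markers were lower in the same comparison, and it held 5.22 to 23.8 normalized CPM in veh-treated WT mice. Its relation to the choroid plexus was not tested. With rh Bri2 BRICHOS R221E against veh, 0 of the 35 genes were called in either strain by edgeR or by DESeq2. At an unadjusted p under 0.05 in edgeR there were 6 of the 35 in AppNL-G-F mice, against 10.8% of all tested genes. In WT mice there were 4, against 11.4%.

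The 12 libraries were also searched for the genes whose log2 CPM followed each of the 9 genes most closely, by Pearson's r over the 12 libraries. This is a description with no test, and the libraries share the division into strains and treatments. Closest to P2ry12 were Adgrg1 (r = 0.997) and Mpi (r = 0.996), and closest to P2ry13 were Tmem52 (r = 0.998) and Map4k2 (r = 0.994). Atp2b1 (r = 0.996) and Lrpap1 (r = 0.995) were closest to P2rx4. For P2rx7 they were Lig4 (r = 0.976) and Sall1 (r = 0.975), for Adora3 Tmem52 (r = 0.983) and C1rl (r = 0.982), for Entpd1 Anks1 (r = 0.983) and Zfx (r = 0.971), and for P2ry6 Galnt12 (r = 0.961) and Madd (r = 0.961). The low genes had looser companions, Pamr1 (r = 0.927) for Adora2a and Syne3 (r = 0.958) and Irs1 (r = 0.925) for Nt5e. Between P2ry12 and P2ry13, r was 0.992 over the 12 libraries and 0.404 over their deviations from the group means, and between P2ry12 and P2rx4 it was -0.985 and -0.326.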

How the data were processed

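RNA-sequencing counts of 12 libraries of CD11b-positive cortical cells were used, 3 per group, each assigned by its title. The authors trimmed the reads, used STAR for alignment to GRCm38 and featureCounts 1.5.1 for counting, and deposited the counts of each gene as they were, not normalized. The kit was stranded, and the strand setting of the counting was not given in the sources used here. No column was left unused. Of 55487 identifiers, 55227 had a symbol in the GENCODE M21 annotation.

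R 4.3.3 was used with edgeR 4.0.16 (filterByExpr with a minimum count of 10, TMM factors, and the quasi-likelihood test in a fit of all libraries with 4 group means). Calls are at a Benjamini-Hochberg adjusted p under 0.05 over the 15425 tested genes. Levels are CPM with TMM factors, and RPKM divides them by exon bases in kilobases. The study's DESeq2 Wald test (DESeq2 1.42.0) was an alternative, besides other scalings and filters, a fold cutoff, the replicate number as a block, marker covariates and the omission of each library. On simulated counts for the veh-treated strains, with 15425 genes, edgeR found 90 of 100 changes of 2-fold and 99 of 100 of 4-fold, with 9 false calls. DESeq2 found 93 and 100, with 29 false calls, and made 11 false calls in simulated WT treatment groups without any change, where edgeR made 0. Simulated counts were drawn with dispersions that edgeR had estimated, so the setting may favour edgeR over DESeq2. Only 200 genes were changed in the simulation, where 5710 were called between the veh-treated strains in the data. The changed genes were drawn from the better expressed ones, so the result does not cover low genes such as Adora2a and Nt5e.

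The 9 genes, the pathway list and the marker lists were chosen with earlier results of these data known. Named pathway genes were those called between the strains, others only counted. The 2 genes with the highest Pearson's r were named for each of the 9, and 1 gene that this rule also takes is left out. Promoter windows are RefSeq's, on GRCm38.p6.

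Each library came from another mouse, and the titles do not say whether equal replicate numbers mark a shared batch. Libraries of equal number had correlations of their deviations from the group means of -0.0148 to 0.227, with means of 0.0801 to 0.143 per comparison. These were over 0.1 in 1 or 2 of the 3 pairs of each comparison, which does not settle the question. The libraries were not paired in the main fit, and the replicate number as a block was an alternative.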

Additional observations from a re-analysis of the deposited data

How the results depend on the processing

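Leaving out 1 library gave 7 called among the 9 genes between the veh-treated strains in all 6 fits and 7 to 8 between the treated strains, and 0 for both treatment comparisons and for the difference between them. Over all genes the ranges were 0 to 162 calls for treatment in AppNL-G-F mice, 0 to 88 for the difference of the treatment effects, both highest without replicate 3 of veh-treated AppNL-G-F mice, and 0 to 5 for treatment in WT mice, highest without replicate 1 of treated WT mice. Of the other pathway genes, 9 to 13 were called between the veh-treated strains, fewest without replicate 2 of veh-treated WT mice, and 17 to 22 between the treated strains. DESeq2's Wald test with all libraries called 125 genes for treatment in AppNL-G-F mice, 85 in WT mice and 240 for the difference of the effects, with 1 of the 9 genes, Adora2a, in the last. With the compared groups alone, DESeq2 called 71 and 135 genes for treatment in AppNL-G-F and WT mice and edgeR 0 in AppNL-G-F mice. Without a filter on low counts, edgeR called 25, 12 and 107 in the same order. For treatment in AppNL-G-F mice it called 0 with the fold cutoff, the block or either marker covariate, and for the difference of the treatment effects 0 with either marker covariate. A cutoff of 1 on the absolute log2 fold change left 1601 genes, 2 of the 9 (P2ry12 and P2rx4) and 8 of the pathway list between the veh-treated strains, and 2454, 3 and 11 between the treated strains. The astrocyte covariate left 1802, 4 and 6 between the veh-treated strains, and the choroid plexus covariate 2952, 5 and 10 between the treated strains. A filter of 10 counts in every library left 11 of the pathway list there, with Adora2a and Nt5e not tested in it. The replicate block gave P2ry6 a call between the treated strains (log2 fold change -0.18, adjusted p = 0.0341, edgeR), as did that filter (-0.21, adjusted p = 0.0488), and changed no other call of the 9 genes.

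The signs that turned belonged to differences that were called under no setting. With 10 counts in every library, treatment in AppNL-G-F mice gave -0.00121 for P2ry12 and -0.00695 for Adora3, and the difference of the treatment effects -0.0123 for P2rx7 and -0.00709 for P2rx4. With the astrocyte covariate, these were -0.104 for P2rx4 and -0.0603 for Adora3, and -0.0461 for P2rx7, -0.166 for P2rx4 and -0.00615 for Adora3. With the choroid plexus covariate, treatment in WT mice gave -0.0717 for P2rx7 and -0.0256 for P2rx4. Without 1 library, treatment in AppNL-G-F mice ranged from -0.0131 to 0.0335 for P2ry12, -0.0305 to 0.0978 for P2ry6, -0.00997 to 0.146 for P2rx7, -0.0130 to 0.151 for P2rx4, -0.0386 to 0.0327 for Adora3 and -0.893 to 0.153 for Nt5e, treatment in WT mice from -0.117 to 0.0116 for Adora3, and the difference of the effects from -0.0635 to 0.0857 for P2rx7, -0.0386 to 0.125 for P2rx4 and -0.00969 to 0.118 for Adora3. The causes were not tested. Depth limits Adora2a and Nt5e, with 6 to 60 counts per library.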
